A study of Mus musculus with 12 samples.

Results

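The genes described here are the protein tyrosine phosphatases and dual-specificity phosphatases of CD4+ T cells sorted from mouse thymus. They were taken as all genes whose symbol begins with Ptpn (non-receptor tyrosine phosphatases), Ptpr (receptor tyrosine phosphatases) or Dusp (dual-specificity phosphatases), which gave 45 of 13207 genes: 16 Ptpn, 11 Ptpr and 18 Dusp genes. All 45 are protein coding genes of the mm10 mouse genome. The stem also takes in Ptprcap, a transmembrane partner of CD45 that is not itself a phosphatase.

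Tyrosine phosphorylation carries the signal of the T cell receptor, and tyrosine phosphatases set how much of it stands. The receptor phosphatase CD45 (Ptprc) keeps the kinase Lck ready to act by removing the phosphate from its inhibitory tyrosine, while SHP-1 (Ptpn6), PTP-PEST (Ptpn12), Ptpn22 and Ptpn2 remove activating phosphates from kinases of the pathway and its neighbours. Downstream, the MAP kinases ERK, JNK and p38 are switched off by dual-specificity phosphatases, which remove phosphate from both a threonine and a tyrosine, and several of these are themselves induced by the MAP kinases that they turn off.

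RNA was sequenced from 4 sorted groups of C57BL/6 mice with 3 libraries each, lettered A, B and D. Tamoxifen (10 μg/g, in olive oil, intraperitoneal) had been given 7 days earlier to the mice of every group, so controls carry that treatment too. No source used here gives the promoter that drives the recombinase. The groups were CD4+tdTomato+GFP+CD73+ cells (CD73+ newly generated regulatory T cells, Treg), the CD73– fraction of the same CD4+tdTomato+GFP+ gate (CD73– newly generated Treg), CD4+tdTomato+GFP–CD73– cells (conventional T cells that were newly generated, Tconv) and CD4+tdTomato–GFP+ cells (tdTomato– Treg, not divided by CD73). tdTomato marks the newly generated cells, and GFP was used to sort Treg. Separate animals per library are not stated in the labels, and the p-values therefore cover only the library-to-library spread, part of which may be technical. The labels' cell types could be checked on the Treg factor Foxp3, with a mean log2 CPM of 9.19 in CD73+, 9.16 in CD73– and 9.11 in tdTomato– Treg against 0.18 in Tconv, and on Nt5e, which encodes CD73, at 7.29 in CD73+ against 5.54 in CD73– newly generated Treg.

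Levels are log2 CPM, the log2 of read counts scaled to the depth of each library. CD73+ and CD73– newly generated Treg stand in one table of the authors and tdTomato– Treg and Tconv in another, scaled separately, so differences were tested only within a table. Levels set side by side across all 4 groups are a description; over 11167 genes the median shift between groups of the 2 tables was 0.01 to 0.03 log2 units. Effective depth was 11000000 to 21400000 counts per library, and a gene with no count in a library has an upper limit of 3 counts, a log2 CPM of −2.61 to −1.65, which covers counting error only. A gene was tested where its log2 CPM was at least 0 in at least 3 of the 12 libraries, and a difference was called past the threshold at a Benjamini-Hochberg adjusted p under 0.05 in limma, adjusted over all genes tested. Of the 45 genes, 39 were tested in each comparison. Dusp3, Dusp8, Dusp18, Ptprg, Ptprk and Ptprm were too low to be tested. In bulk libraries such as these, fewer cells that express a gene and less RNA per cell cannot be told apart.

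Per length, the phosphatase RNAs covered a wide range, and CD45 stood above the others. Lengths are those of all annotated exons of a gene merged, not of the transcripts expressed, and the ranks depend on them. Dusp11 had a mean log2 CPM of 8.11 in CD73+ newly generated Treg, above Dusp1 (7.99) and Dusp4 (7.93). Per length it held rank 9 there. Ptprc had a mean level, in log2 CPM per kilobase of exons, of 7.18 and 7.31 in newly generated Treg with and without CD73, 7.15 in tdTomato– Treg and 7.21 in Tconv, the highest of all members in each of the 4 groups. In the 3 Treg groups the next ranks per length were held by Dusp4 and Dusp1. Dusp4 stood at 6.48, 6.32 and 6.24 log2 CPM per kilobase in CD73+, CD73– and tdTomato– Treg, and Dusp1 at 6.26, 6.41 and 6.55. In the newly generated Treg these neighbours in the order lay closer together than the SD of Dusp1 over 3 libraries, 0.49 and 0.42 log2 units. In tdTomato– Treg they lay further apart than their SDs, 0.21 for Dusp1 and 0.11 for Dusp4. Ptprcap followed Dusp4 in tdTomato– Treg at 6.16 log2 CPM per kilobase, closer than the SD of Dusp4. In Tconv the second rank was held by Dusp10 at 5.92 log2 CPM per kilobase, next to Ptprcap at 5.90 and Ptpn6 at 5.79, and Dusp4 held rank 21 at 2.21. Of the cytosolic phosphatases that act at the T cell receptor, Ptpn6 stood highest, at 4.95 to 5.79 log2 CPM per kilobase over the 4 groups, followed by Ptpn22 at 4.02 to 4.54, Ptpn2 at 3.59 to 3.96, Ptpn12 at 3.13 to 3.78 and Ptpn11 at 3.31 to 3.43.

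**Figure D1:**
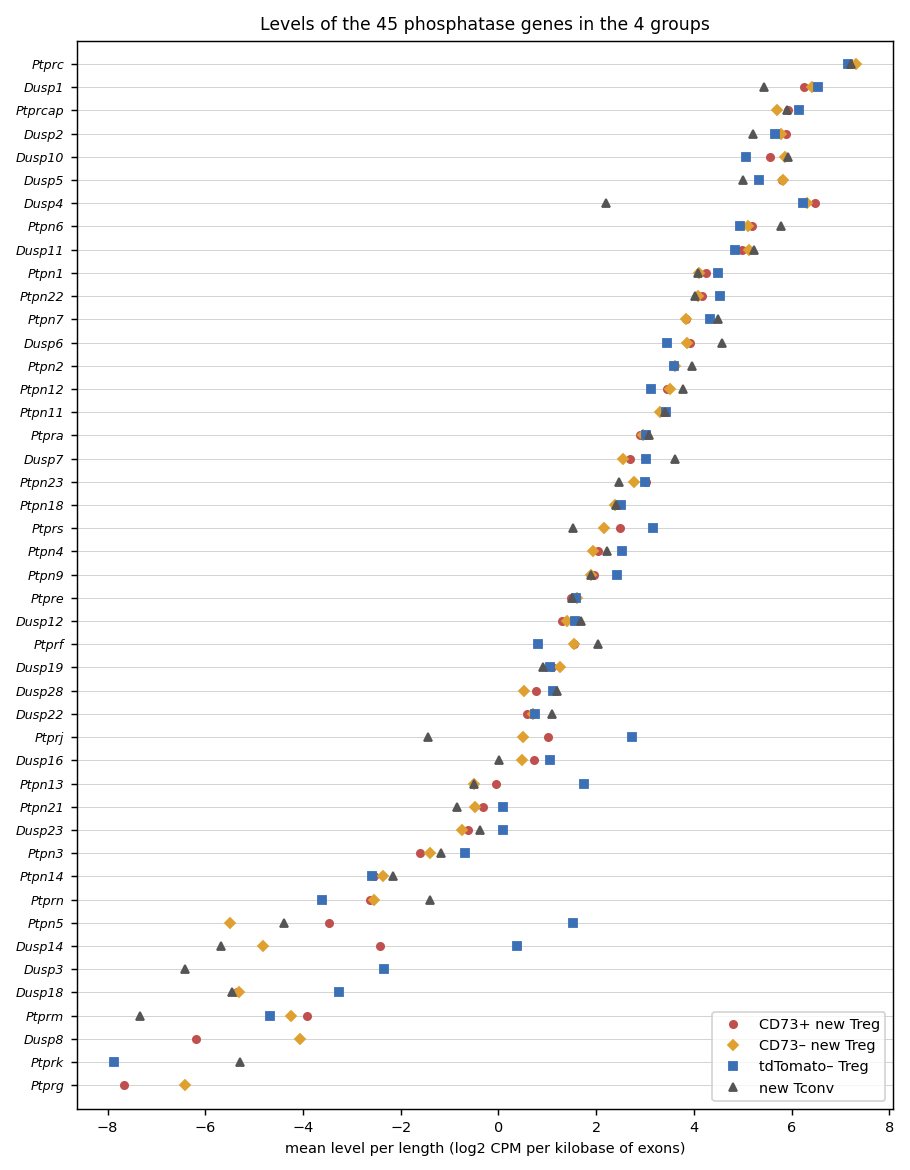
Mean level of each of the 45 phosphatase genes (rows) in log2 CPM per kilobase of exons (horizontal axis), with a circle for CD73+ newly generated Treg, a diamond for CD73– newly generated Treg, a square for tdTomato– Treg and a triangle for Tconv, each the mean of 3 libraries; Dusp8, Ptprg, Dusp3 and Ptprk are in 1 table only and have 2 markers. Ptprc is highest in every group, and the triangle of Dusp4 lies at 2.21 while its 3 Treg markers lie between 6.24 and 6.48.

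CD73+ and CD73– newly generated Treg, the comparison that asks how newly generated Treg that carry CD73 differ from those that do not, had similar phosphatase levels. Of 39 members tested, 2 rose in CD73+ cells, the receptor phosphatases Ptprs and Ptprj, and none fell. The share past the threshold over all genes tested was 2.47%, of which 1.78% rose and 0.689% fell, and 2 of 39 members (5.13%) is too small a count to set apart from it. The median log2 fold change of the members was 0.06, against 0.01 over all genes tested. The 3 libraries of the groups did not overlap for 9 of the 39 members, where 18.2% of all genes tested had groups that did not overlap. Unadjusted p was under 0.05 for 9 of the 39 members and for 1918 of 11170 genes tested. In the authors' deposited table, 1 of the 39 members and 150 of the 11170 genes had an adjusted p under 0.05.

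Ptprs (RPTPσ, a receptor phosphatase that binds proteoglycans and is best known from neurons; mm10 chr17:56412426-56476483) had log2 CPM values of 6.40, 6.43 and 6.35 in CD73+ libraries A, B and D and of 6.13, 6.03 and 6.04 in CD73– libraries A, B and D. Every CD73+ library was above every CD73– library. The log2 fold change was 0.33 (SE 0.06, limma adjusted p = 0.00855), and the call was kept when any 1 library was left out but not without all 4 libraries of letter D (adjusted p = 0.113). The authors' deposited table gives 0.0262 for its adjusted p.

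Ptprj (CD148, a receptor phosphatase that acts on Src family kinases; mm10 chr2:90429754-90580647) had log2 CPM values of 4.27, 3.98 and 3.99 in CD73+ libraries and of 3.62, 3.55 and 3.51 in CD73– libraries. These groups did not overlap either. The log2 fold change was 0.52 (SE 0.12, limma adjusted p = 0.034). The call was less firm than that of Ptprs: leaving out any of the 6 libraries of the 2 groups ended it, with adjusted p-values of 0.0524 to 0.16, and so did a fit of these 2 groups alone (0.0751), a fit with no intensity trend (0.0647) and leaving out the letter D libraries (0.222). In the authors' deposited table its adjusted p is 0.0846.

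The letters paired the CD73+ and CD73– libraries by the check given under the processing, and with the letter as a replicate block 6 members were past the threshold in place of 2. The block was fitted over all 12 libraries, so its letter terms rest on the tdTomato– Treg and Tconv libraries too. A paired fit of the CD73+ and CD73– libraries alone was not run. Ptprs (adjusted p = 0.00161) and Ptprj (0.0202) were joined by Ptpn13 and Ptprcap, higher in CD73+ cells, and by Dusp10 and Ptprc, lower in CD73+ cells. The count over all genes moved in the same fit from 276 to 658.
Dusp10 (MKP-5, a phosphatase of JNK and p38) was lower in the CD73+ library by nearly the same amount within each letter. The differences in log2 CPM were −0.34, −0.30 and −0.30 for A, B and D. In both groups library B lay further than that below A and D, while A and D lay closer together than that. The log2 fold change of Dusp10 was −0.31, with an adjusted p of 0.00678 in the limma fit with the block and 0.299 without it.
Ptprc differed by −0.10, −0.16 and −0.12 between libraries of the same letter (limma adjusted p = 0.0465 with the block, 0.298 without it). This small difference depends on the scaling: without the block, the log2 fold change of Ptprc was −0.13, and 0.00 with quantile normalisation. Ptpn13, a large cytosolic phosphatase with PDZ domains, differed by 0.43, 0.64 and 0.29 (0.0294 with the block, 0.064 without it). Ptprcap differed by 0.27, 0.25 and 0.12 (0.0485 with the block, 0.149 without it). For Ptprcap, 76% of the exon bases also lie in exons of Rps6kb2 on the opposite strand and 26.8% in exons of Coro1b on the same strand. No source used here says whether the counts used strand, so its values are uncertain in every comparison.

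None of the 15 tested Dusp genes and none of the 16 tested Ptpn genes was past the threshold between CD73+ and CD73– newly generated Treg without the block. Unadjusted p was under 0.05 for 2 Dusp and 4 Ptpn genes, beside 1918 of 11170 genes tested. The authors' deposited table calls none of the Dusp and Ptpn genes either. For the MAP kinase phosphatases the intervals of the difference were narrow: the log2 fold change was 0.09 for Dusp2 (95% interval −0.05 to 0.24), 0.16 for Dusp4 (−0.18 to 0.51), −0.02 for Dusp5 (−0.38 to 0.34) and 0.07 for Dusp6 (−0.15 to 0.28). The interval of Dusp1 was wider, −0.66 to 0.36 around −0.15. Among the non-receptor phosphatases the values were 0.08 for Ptpn6 (−0.07 to 0.22), 0.05 for Ptpn11 (−0.08 to 0.18), −0.03 for Ptpn2 (−0.22 to 0.16) and 0.09 for Ptpn22 (−0.03 to 0.21). The largest estimates belonged to low genes. Dusp14 had 16.0 estimated counts over the 3 CD73+ libraries and 3.0 over the CD73– libraries, all of these in library A, a ratio of 4.76 per unit of depth with a 95% counting interval of 1.36 to 25.5. Its test did not pass (limma adjusted p = 0.191).

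Between tdTomato– Treg and newly generated Tconv, most members differed, as did most genes. This comparison sets Treg that were not labelled against conventional cells that were, and only the Tconv gate left out CD73+ cells. The mean log2 CPM of Nt5e was 8.21 in tdTomato– Treg and 3.88 in Tconv (log2 fold change 4.33). Cell type, label and CD73 gate thus change together here, and the part of each in the differences was not tested. Of 39 members tested, 16 rose in tdTomato– Treg, 11 fell and 12 did not pass the test, 69.2% past the threshold beside 52.1% of all genes tested (26.4% higher and 25.7% lower). The groups did not overlap for 29 of the 39 members, beside 60.9% of all genes. The median log2 fold change was 0.13 over the members and −0.01 over all genes tested. Of these members, Dusp14 and Ptpn5 reached the filter only through the tdTomato– Treg libraries and Ptprn only through the Tconv libraries, so each could enter the test only because it was high in that group, and their 3 calls within the 27 are not support for a difference.

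**Figure D2:**
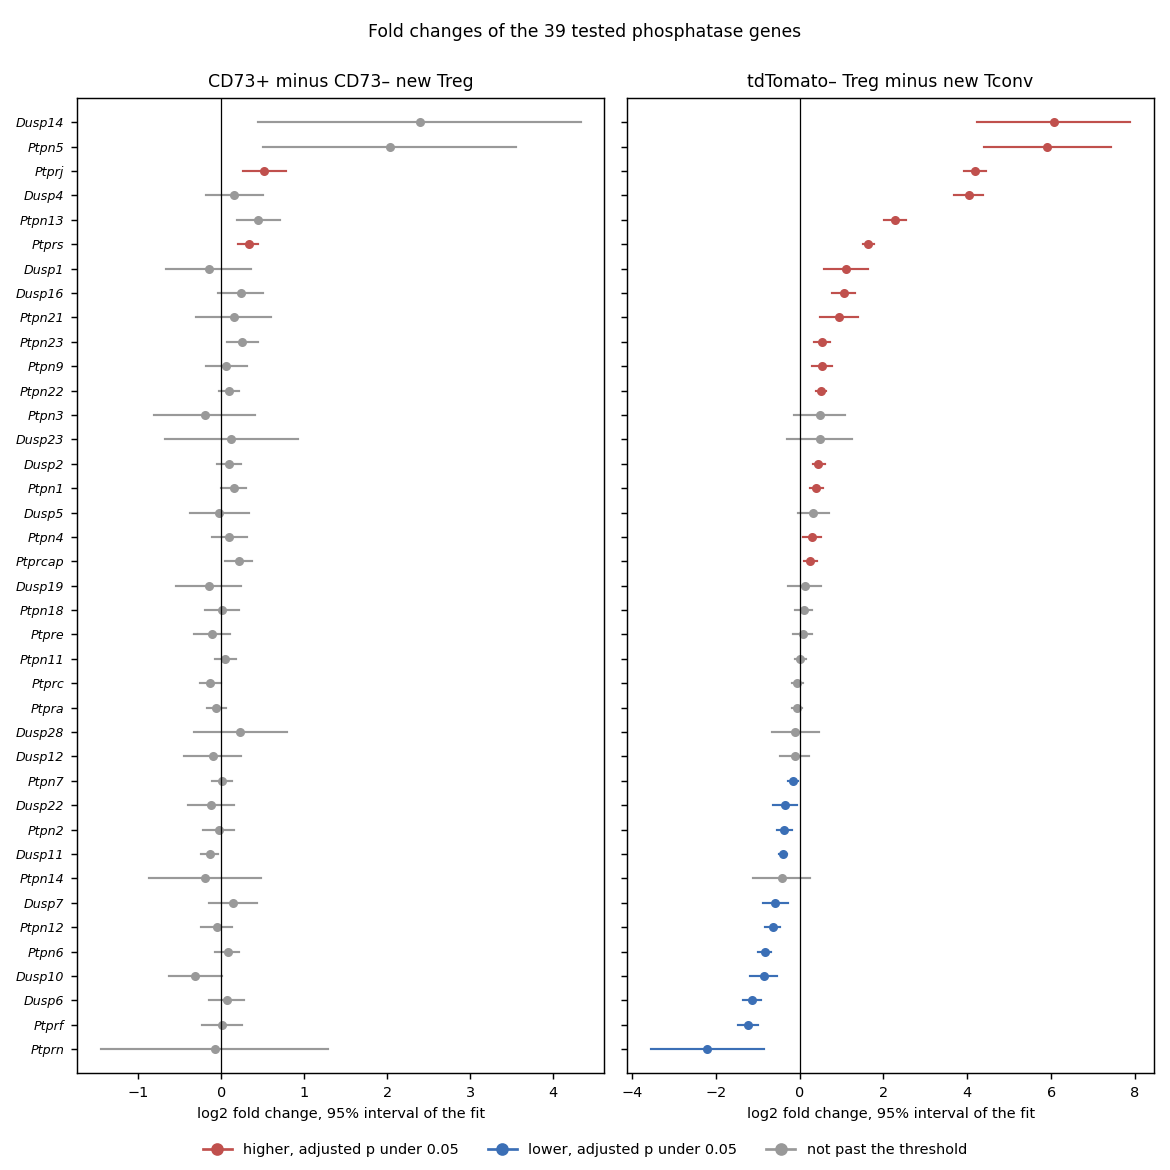
Log2 fold change of each of the 39 tested phosphatase genes (points) with its 95% interval from the limma fit (lines), for CD73+ minus CD73– newly generated Treg on the left and tdTomato– Treg minus Tconv on the right, ordered by the second. Ptprs and Ptprj are coloured on the left at 0.33 and 0.52, and the right panel runs from −2.20 for Ptprn to 6.06 for Dusp14.

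Of the 4 nuclear, inducible MAP kinase phosphatases, Dusp1, Dusp2 and Dusp4 rose in tdTomato– Treg and Dusp5 did not pass. The 2 tested cytoplasmic ERK phosphatases, Dusp6 and Dusp7, both fell. The 2 tested phosphatases of JNK and p38 went opposite ways, Dusp16 up and Dusp10 down. These classes hold only 2 to 4 tested genes, and 52.1% of all genes tested were past the threshold, so their counts cannot be set apart from that share.

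Dusp4 (MKP-2, a nuclear phosphatase of ERK and JNK; mm10 chr8:34807297-34819894) had log2 CPM values of 7.81, 7.59 and 7.67 in tdTomato– Treg libraries A, B and D and of 3.75, 3.18 and 4.05 in Tconv. CD73+ newly generated Treg stood at 8.07, 7.78 and 7.95 and CD73– newly generated Treg at 7.98, 7.45 and 7.88. The 9 Treg libraries thus lay between 7.45 and 8.07 and the 3 Tconv libraries between 3.18 and 4.05. The log2 fold change of tdTomato– Treg against Tconv was 4.03 (SE 0.17, limma adjusted p = 2.5e-12), or 16.3-fold.

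Dusp1 (MKP-1, a nuclear phosphatase of p38 and JNK and an immediate early gene; mm10 chr17:26505590-26562128) had values of 8.36, 8.03 and 8.43 in tdTomato– Treg and of 7.22, 6.64 and 7.64 in Tconv. The newly generated Treg overlapped with the tdTomato– Treg, at 8.20, 7.43 and 8.33 for CD73+ and 8.35, 7.65 and 8.40 for CD73– cells. The log2 fold change of tdTomato– Treg against Tconv was 1.11 (SE 0.24, limma adjusted p = 0.00115).
Dusp2 (PAC-1, a nuclear ERK phosphatase of activated lymphocytes) had values of 6.68, 6.71 and 6.64 in tdTomato– Treg and of 6.35, 6.05 and 6.27 in Tconv, with no overlap (log2 fold change 0.45, SE 0.07, limma adjusted p = 3.3e-05). It varied little among Treg libraries, from 6.64 to 6.90. Dusp5 (a nuclear phosphatase that acts on ERK alone) had values of 6.83, 6.52 and 6.56 in tdTomato– Treg and of 6.44, 5.81 and 6.67 in Tconv. Those groups overlapped through Tconv library D, and the difference did not pass (0.33, SE 0.17, limma adjusted p = 0.116); without that library it did (0.0172). An antisense gene covers 22.1% of the exon bases of Dusp5.

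Dusp6 (MKP-3, the cytoplasmic ERK phosphatase induced by ERK signalling) had values of 5.05, 4.95 and 5.27 in tdTomato– Treg and of 6.13, 6.30 and 6.26 in Tconv, and the newly generated Treg lay between, at 5.63, 5.35 and 5.72 for CD73+ and 5.47, 5.40 and 5.63 for CD73– cells. It fell by 1.14 on the log2 scale from Tconv to tdTomato– Treg (SE 0.10, limma adjusted p = 6.3e-08).
Dusp7, the other cytoplasmic ERK phosphatase found here, had values of 4.88, 4.61 and 4.85 in tdTomato– Treg and of 5.45, 5.12 and 5.50 in Tconv (log2 fold change −0.58, SE 0.14, limma adjusted p = 0.00238). Here the newly generated Treg did not lie between, with 4.71, 4.19 and 4.40 in CD73+ and 4.09, 4.28 and 4.51 in CD73– libraries.

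Dusp10 had values of 6.88, 6.36 and 6.76 in tdTomato– Treg and of 7.55, 7.41 and 7.63 in Tconv (log2 fold change −0.86, SE 0.15, limma adjusted p = 1.5e-04). CD73– newly generated Treg, at 7.59, 7.13 and 7.69, reached the range of Tconv, and CD73+ newly generated Treg stood at 7.25, 6.83 and 7.39. Dusp16 (MKP-7, a phosphatase of JNK) had values of 4.28, 3.92 and 3.87 in tdTomato– Treg and of 2.82, 3.15 and 2.96 in Tconv (1.05, SE 0.13, limma adjusted p = 4.3e-06), with CD73+ at 3.67, 3.72 and 3.68 and CD73– newly generated Treg at 3.50, 3.37 and 3.49. The order of its libraries was Tconv, CD73–, CD73+ and tdTomato– Treg with no overlap between groups. Dusp8, the third of this kind, had 2.0 estimated counts over the CD73+ and 11 over the CD73– libraries, a ratio of 6.16 per unit of depth (95% counting interval 1.34 to 57.2), and was not tested.

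**Figure D3:**
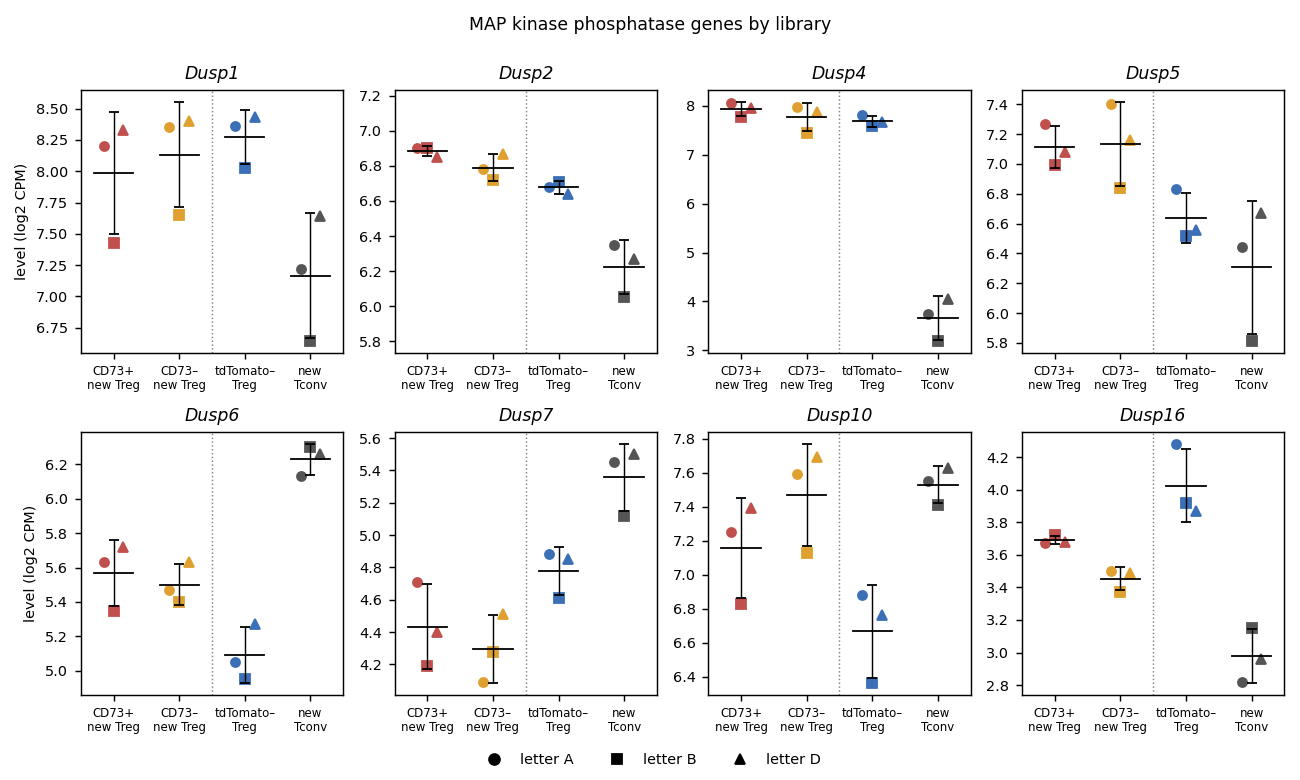
Level in log2 CPM (vertical axes, a separate scale in each panel) of 8 MAP kinase phosphatase genes in the 4 groups (horizontal axis); each marker is a library, with its shape giving the letter, and bars give the mean and SD of 3 libraries. The dotted line separates the 2 tables of the authors. Tconv is lowest for Dusp4 (3.18 to 4.05) and highest for Dusp6 (6.13 to 6.30).

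The libraries of letter B were the lowest of their group for Dusp1, Dusp4, Dusp5 and Dusp10 in all 4 groups. B was the lowest letter in all 4 groups for 4 of the 39 members and for 4.17% of 11167 genes tested in both comparisons. Dusp1 deviated from its group mean in the B libraries by −0.56, −0.48, −0.24 and −0.53 log2 units in CD73+, CD73–, tdTomato– Treg and Tconv. A list of 16 immediate early genes, those induced within minutes of stimulation or tissue handling, moved the same way: its mean log2 CPM in libraries A, B and D was 6.33, 5.94 and 6.58 in CD73+ newly generated Treg, 6.28, 5.90 and 6.62 in CD73– newly generated Treg, 6.72, 6.43 and 7.03 in tdTomato– Treg and 5.62, 5.35 and 6.19 in Tconv. This list also differed between groups: 10 of its 15 tested genes rose in tdTomato– Treg against Tconv and 1 fell (73.3% past the threshold beside 52.1% of all genes, median log2 fold change 0.71 beside −0.01), while none of the 15 passed between CD73+ and CD73– cells, where unadjusted p was under 0.05 for 2. Its part in the differences of Dusp1, Dusp2, Dusp4 and Dusp10 was not tested.

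**Figure D4:**
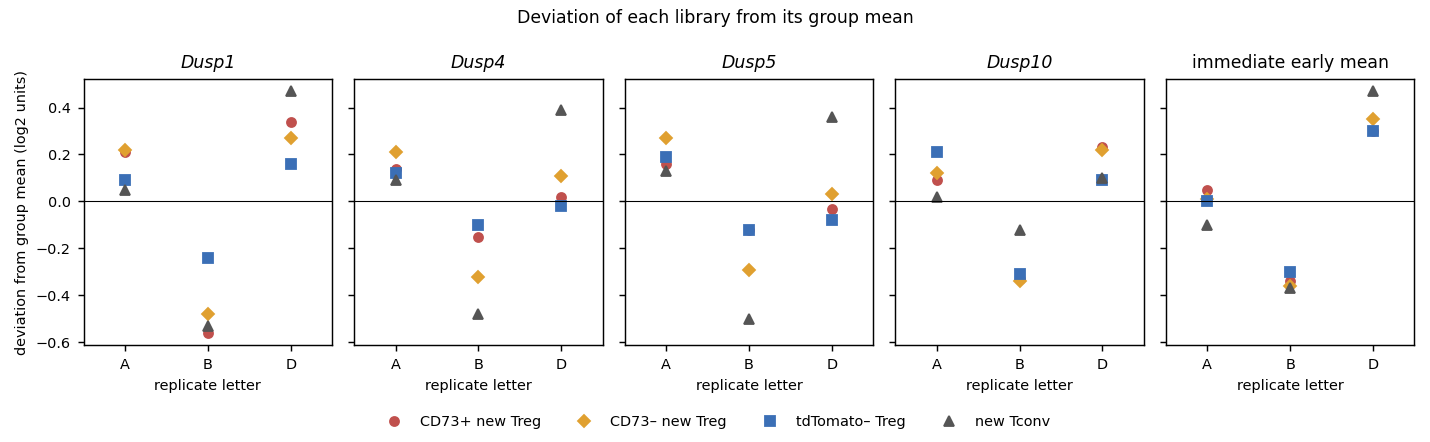
Deviation of each library from its group mean in log2 units (vertical axis) by replicate letter (horizontal axis) for Dusp1, Dusp4, Dusp5, Dusp10 and the mean of 16 immediate early genes, with a marker shape for each of the 4 groups. All markers of letter B lie below 0, from −0.10 to −0.56.

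The promoters of 3 inducible Dusp genes and of Ptprs are shown as examples. Their windows hold the letters of response elements, but so do windows not shown. Those of Dusp8 and Ptpn11 hold a full cyclic AMP response element. Dusp1, Dusp2 and Ptprs passed a test above and Dusp5 did not, while Ptpn11 passed in neither comparison and Dusp8 was not tested. The choice is therefore no support for a link between the elements and the differences. Of the 45 members, 40 have a window in the RefSeq table (250 bases before to 50 after a start, GRCm38.p6), and Dusp19, Dusp4, Ptpn12, Ptpn2 and Ptprcap have none. Capitals mark the cyclic AMP response element (CRE, TGACGTCA), its core (TGACG, which also lies inside the full element) and the CArG box of serum response factor, on either strand; each full CRE holds 2 overlapping cores, 1 on each strand.
Dusp1 promoter, GRCm38.p6 chr17:26508423-26508722, minus strand: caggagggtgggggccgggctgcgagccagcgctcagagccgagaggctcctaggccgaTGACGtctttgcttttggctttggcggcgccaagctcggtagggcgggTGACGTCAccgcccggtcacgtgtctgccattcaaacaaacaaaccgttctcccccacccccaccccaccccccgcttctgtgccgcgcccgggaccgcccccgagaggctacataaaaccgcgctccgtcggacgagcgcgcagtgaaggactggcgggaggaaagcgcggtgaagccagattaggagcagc
Dusp2 promoter, GRCm38.p6 chr2:127335909-127336208, plus strand: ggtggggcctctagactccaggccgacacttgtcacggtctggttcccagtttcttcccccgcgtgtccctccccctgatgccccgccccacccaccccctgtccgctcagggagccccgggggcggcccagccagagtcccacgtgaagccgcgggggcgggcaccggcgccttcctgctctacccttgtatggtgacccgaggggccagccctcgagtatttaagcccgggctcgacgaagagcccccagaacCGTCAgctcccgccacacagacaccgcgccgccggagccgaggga
Dusp5 promoter, GRCm38.p6 chr19:53528895-53529194, plus strand: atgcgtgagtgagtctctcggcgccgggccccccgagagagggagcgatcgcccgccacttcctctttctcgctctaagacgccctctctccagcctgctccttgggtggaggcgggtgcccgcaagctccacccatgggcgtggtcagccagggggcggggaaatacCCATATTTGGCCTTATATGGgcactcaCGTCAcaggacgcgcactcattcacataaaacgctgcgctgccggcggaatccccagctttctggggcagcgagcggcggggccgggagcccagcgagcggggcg
Ptprs promoter, GRCm38.p6 chr17:56476431-56476730, minus strand: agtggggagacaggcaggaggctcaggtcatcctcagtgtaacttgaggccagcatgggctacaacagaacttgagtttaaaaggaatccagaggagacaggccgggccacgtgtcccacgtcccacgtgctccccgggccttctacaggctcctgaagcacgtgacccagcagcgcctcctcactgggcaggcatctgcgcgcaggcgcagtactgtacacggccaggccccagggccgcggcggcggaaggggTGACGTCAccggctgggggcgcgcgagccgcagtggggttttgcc
Positions are the first base of a match relative to the start site. Dusp1 holds a full CRE at −143 and a further core at −191. Dusp2 holds a core at 6, and Dusp5 a core at −55 and 2 adjoining CArG boxes at −82 and −72. Ptprs has a further window without a full CRE, and in the one shown the full CRE is at 6. Of 32851 windows of the same length in the table, 1.79% hold a full CRE, 20.8% a core and 1.63% a CArG box. Of the 51 windows of the 40 members, 4 hold a full CRE (Dusp1, Dusp8, Ptpn11 and Ptprs), 23 a core and 1 a CArG box. A match gives the letters only; the data hold no measure of binding.

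Of the atypical dual-specificity phosphatases, which lack the MAP kinase docking part, Dusp14 rose while Dusp11 and Dusp22 fell in tdTomato– Treg. Dusp14 (MKP-6, a regulator of T cell receptor signalling; mm10 chr11:84048041-84069261) had log2 CPM values of 1.30, 1.28 and 1.46 in tdTomato– Treg, and −5.13, −3.83 and −5.17 in Tconv, where libraries A and D held no count and library B about 1. Over 3 libraries the estimated counts were 113.9 and 1.0, a ratio of 144 per unit of depth with a 95% counting interval of 25.2 to 5718. CD73+ newly generated Treg, at −1.79, −1.04 and −1.58, were also low. Its fitted log2 fold change, 6.06 (SE 0.87, limma adjusted p = 1.8e-05), depends on the offset of 0.5 count and is not a bound, and with 1 tdTomato– Treg library left out it no longer reached the filter.
Dusp11, an RNA phosphatase of the nucleus rather than a protein phosphatase, had values of 7.96, 7.94 and 8.01 against 8.41, 8.31 and 8.37 in Tconv (log2 fold change −0.39, SE 0.05, limma adjusted p = 2.8e-06). Dusp22 (JKAP, which acts on Lck) had values of 3.01, 3.20 and 3.08 against 3.46, 3.44 and 3.43 (−0.35, SE 0.13, limma adjusted p = 0.0387), a call that leaving out tdTomato– Treg A or D or any Tconv library ended (0.0771 to 0.122). Leaving out letter D ended it too (limma adjusted p = 0.149). The other 4 tested atypical members, Dusp12, Dusp19, Dusp23 and Dusp28, did not pass, with log2 fold changes of −0.12 to 0.48. Dusp3 was not tested; it had 42.0 estimated counts over the tdTomato– Treg and 2.0 over the Tconv libraries, a ratio of 26.4 per unit of depth (95% counting interval 6.88 to 225).

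Among receptor phosphatases, CD45 differed little between groups while Ptprj, Ptprs and Ptprf differed strongly. Ptprc had log2 CPM values of 11.27, 11.31 and 11.45 in tdTomato– Treg and of 11.35, 11.42 and 11.45 in Tconv, with overlap. The difference was −0.06 (95% interval −0.19 to 0.07, limma adjusted p = 0.413). Ptprcap had values of 6.92, 6.87 and 6.76 against 6.59, 6.55 and 6.63 (0.26, SE 0.08, limma adjusted p = 0.00817), with the overlapping exons named above.

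Ptprj had values of 5.77, 5.73 and 5.87 in tdTomato– Treg and of 1.41, 1.80 and 1.63 in Tconv. With CD73– newly generated Treg at 3.51 to 3.62 and CD73+ newly generated Treg at 3.98 to 4.27, the 4 groups were fully separated. The log2 fold change of tdTomato– Treg against Tconv was 4.18 (SE 0.12, limma adjusted p = 3.3e-14), or 18.1-fold, the largest of the members that every group expressed above a log2 CPM of 1.
Ptprs had values of 7.06, 7.13 and 7.03 in tdTomato– Treg and of 5.43, 5.52 and 5.35 in Tconv (1.64, SE 0.06, limma adjusted p = 5.4e-13), and its groups followed the same order, Tconv, CD73–, CD73+ and tdTomato– Treg, with no overlap.

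Ptprf (LAR, a receptor phosphatase of adhesion sites) went the other way, with values of 4.08, 4.13 and 3.78 in tdTomato– Treg and of 5.21, 5.24 and 5.24 in Tconv (−1.23, SE 0.11, limma adjusted p = 1.1e-07). Newly generated Treg lay between, at 4.69 to 4.82 for CD73+ and 4.47 to 4.93 for CD73– cells. Ptprn (IA-2, a catalytically inactive member of secretory granules) was near the filter, at −0.86, −1.04 and −2.69 in tdTomato– Treg and 0.65, 0.47 and 0.90 in Tconv (−2.20, SE 0.64, limma adjusted p = 0.00815), and its call ended without tdTomato– Treg library D (0.0555). The call of Ptprn also ended without letter D (limma adjusted p = 0.13). Ptpra and Ptpre, which act on Src family kinases, did not pass (−0.06, 95% interval −0.17 to 0.05, and 0.08, −0.15 to 0.30). Ptprm had 16.0 and Ptprk 2.0 estimated counts over the tdTomato– Treg libraries, against 2.0 and 18.0 in Tconv, and Ptprg 2.0 and 6.0 in CD73+ and CD73– newly generated Treg.

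**Figure D5:**
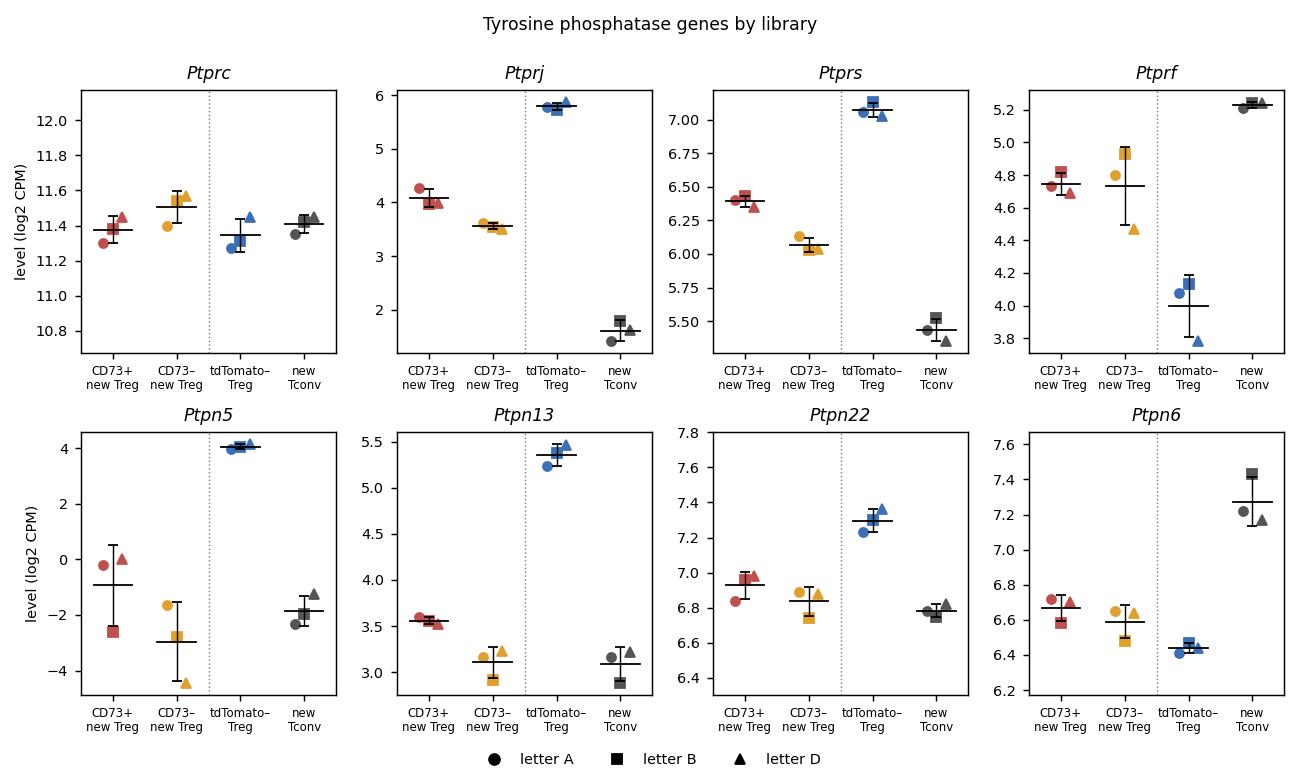
Level in log2 CPM (vertical axes, a separate scale in each panel) of 8 tyrosine phosphatase genes in the 4 groups (horizontal axis); each marker is a library, with its shape giving the letter, and bars give the mean and SD of 3 libraries. The dotted line separates the 2 tables of the authors. Ptprj and Ptprs rise in the order Tconv, CD73–, CD73+ and tdTomato– Treg, while Ptpn6 is highest in Tconv (7.17 to 7.43).

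The non-receptor phosphatases that act close to the T cell receptor split by direction. SHP-1 (Ptpn6), which inhibitory receptors recruit through its SH2 domains, had log2 CPM values of 6.41, 6.47 and 6.44 in tdTomato– Treg and of 7.22, 7.43 and 7.17 in Tconv (log2 fold change −0.83, SE 0.07, limma adjusted p = 3.2e-08). All 9 Treg libraries, at 6.41 to 6.72, were below every Tconv library. SHP-2 (Ptpn11), its close relative, had values of 6.35, 6.36 and 6.31 against 6.33, 6.43 and 6.20, with overlap (0.02, 95% interval −0.11 to 0.15, limma adjusted p = 0.807).

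Ptpn22 (which acts on Lck and ZAP-70 with the kinase Csk) had values of 7.23, 7.30 and 7.36 in tdTomato– Treg and of 6.78, 6.75 and 6.82 in Tconv (0.51, SE 0.06, limma adjusted p = 1.3e-06). Ptpn12, of the same PEST family, went down, with 4.89, 4.98 and 4.96 against 5.52, 5.77 and 5.47 (−0.64, SE 0.09, limma adjusted p = 9.2e-06). The third PEST member, Ptpn18, did not pass (0.10, 95% interval −0.10 to 0.30).
Ptpn2 (TC-PTP, which acts on JAK kinases and STAT factors of cytokine receptors) had values of 5.06, 5.29 and 5.37 against 5.56, 5.73 and 5.52 (−0.36, SE 0.09, limma adjusted p = 0.00288). Its nearest relative Ptpn1 (PTP1B) rose instead (0.40, SE 0.07, limma adjusted p = 1.6e-04). Ptpn7 (HePTP, a phosphatase of ERK and p38 in blood cells) had values of 6.93, 6.98 and 6.93 against 7.08, 7.19 and 7.04 (−0.16, SE 0.06, limma adjusted p = 0.0285), a small difference whose call ended without tdTomato– Treg A, tdTomato– Treg D or Tconv B (0.0858, 0.0791 and 0.122), without letter D (0.0856) and with no intensity trend (0.0501). Ptpn1, like Ptpn4 below, lies outside the rule for named genes and is named as one of the 2 remaining members that rose.

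Ptpn5 (STEP, a relative of Ptpn7 known mainly from neurons; mm10 chr7:47077795-47133684) had 213, 257 and 286 estimated counts in tdTomato– Treg libraries and at most 15.9 in any of the other 9. It had log2 CPM values of 3.97, 4.06 and 4.15 in tdTomato– Treg and of −2.32, −1.96 and −1.26 in Tconv (log2 fold change 5.91, SE 0.71, limma adjusted p = 2.6e-06). Without its tdTomato– Treg libraries it would not have reached the filter, and the fold rests on 3.01, 5 and 7.02 estimated counts in Tconv, so that the offset of 0.5 count bears on it as on Dusp14. CD73+ newly generated Treg scattered from −2.62 to 0.01 and CD73– newly generated Treg from −4.46 to −1.64, so no other library reached the tdTomato– Treg range.
Ptpn13 had values of 5.23, 5.38 and 5.46 in tdTomato– Treg and of 3.17, 2.88 and 3.22 in Tconv (2.27, SE 0.12, limma adjusted p = 1.1e-10), and newly generated Treg stood near Tconv, at 3.52 to 3.60 for CD73+ and 2.92 to 3.23 for CD73– cells. Ptpn21, a phosphatase with a FERM domain, had values of 3.26, 2.87 and 3.10 against 2.22, 2.30 and 1.91 (0.93, SE 0.22, limma adjusted p = 0.00162).
Ptpn23 (HD-PTP, which takes part in endosomal sorting of receptors) had values of 5.51, 5.47 and 5.47 against 5.07, 4.76 and 5.03 (0.53, SE 0.09, limma adjusted p = 8.0e-05), and Ptpn9 (MEG2, a vesicle phosphatase) of 4.58, 4.55 and 4.79 against 4.10, 4.14 and 4.08 (0.53, SE 0.11, limma adjusted p = 9.1e-04). Ptpn4 rose by 0.29 (SE 0.10, limma adjusted p = 0.0192), a call that ended without tdTomato– Treg D (0.0719), without Tconv A (0.0596), without letter D (0.0839) and with no intensity trend (0.0521). Ptpn3 and Ptpn14 did not pass, at 0.48 (95% interval −0.13 to 1.09) and −0.43 (−1.10 to 0.25).

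The 2 comparisons share no library, and their values can be set side by side. Of the 16 members that rose in tdTomato– Treg against Tconv, 15 had a positive estimate in CD73+ against CD73– newly generated Treg, with a median of 0.19; only Ptprs and Ptprj were past the threshold there, and Dusp1 had the negative estimate. Over all genes, 64.8% of 2929 that rose had a positive estimate. Dusp14 and Ptpn5 are among the 15, although they reached the filter only through the tdTomato– Treg libraries. Their estimates in CD73+ against CD73– cells, 2.39 and 2.03, rest on few counts and are not support for a shared direction. Of the 11 members that fell, 5 had a positive estimate, with a median of −0.03, beside 39.5% of 2875 genes that fell.

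The kinases, adaptors and receptors on which these enzymes act were described by lists. Of 26 genes of proximal T cell receptor signalling, 17 fell and 3 rose in tdTomato– Treg against Tconv, with a median log2 fold change of −0.39 beside −0.01 over all genes; 76.9% of the list and 52.1% of all genes were past the threshold. Pag1, an adaptor that holds Csk at the membrane, had a log2 fold change of −1.19 (SE 0.05, limma adjusted p = 3.4e-12) and Themis, which binds SHP-1, of −1.40 (SE 0.06, limma adjusted p = 3.8e-12). Ubash3b, itself a phosphatase of another family that restrains the receptor, rose by 1.21 (SE 0.09, limma adjusted p = 6.9e-09), and so did Cblb, a ubiquitin ligase, by 0.72 (SE 0.09, limma adjusted p = 2.3e-06). Between CD73+ and CD73– newly generated Treg, 5 of the 26 fell and 1 rose (23.1% beside 2.47% of all genes), while the authors' deposited table calls 2 and none passed without letter D: Themis (−0.38, limma adjusted p = 0.00247) and Txk (−0.38, limma adjusted p = 0.0139) had the lowest p-values, and Ubash3b rose (0.36, limma adjusted p = 0.041).

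Of 20 tested genes of the MAP kinase cascade, 5 rose and 7 fell in tdTomato– Treg against Tconv (60% past the threshold, near the 52.1% of all genes), with a median of −0.08, among them Ksr1 up by 0.83 (SE 0.10, limma adjusted p = 1.5e-06) and the exchange factor Rasgrp1 with −0.52 (SE 0.05, limma adjusted p = 4.8e-08). None passed between CD73+ and CD73– cells in limma, where unadjusted p was under 0.05 for 4, 1 passed with the replicate block and none passed in the authors' deposited table. Of 5 tested Sprouty and Spred genes, which restrain ERK upstream, none passed between CD73+ and CD73– cells. In tdTomato– Treg against Tconv, 1 rose and 2 fell (60%, near the 52.1% of all genes). Spry1 rose by 3.37 (SE 0.13, limma adjusted p = 1.7e-12) while Spred1 and Spred2 fell. Of 12 tested receptors and adaptors that recruit SHP-1 or SHP-2, 4 rose and 3 fell (58.3%, also near 52.1%): Cd72 rose by 2.87 (SE 0.16, limma adjusted p = 1.1e-10) and Slamf1 by 1.21 (SE 0.06, limma adjusted p = 1.9e-11), and Lair1 had −2.86 (SE 0.46, limma adjusted p = 6.3e-05). In CD73+ against CD73– cells, Pdcd1 (0.52, limma adjusted p = 0.00957) and Cd72 (0.67, limma adjusted p = 0.0309) rose and Slamf6 fell (−0.31, limma adjusted p = 0.0203), 25% of the list beside 2.47% of all genes. The authors' deposited table calls 1 of the 12, and none of them passed without letter D.

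Markers of other cells were found at differing levels. The summed CPM of myeloid markers was 15.7 to 25.3 in newly generated Treg (8 markers), and 24.2 to 34.9 in tdTomato– Treg and 19 to 20.1 in Tconv (9 markers in both). That of 5 erythroid markers was 90.6 to 119 in newly generated Treg, 91 to 144 in tdTomato– Treg and 67.2 to 107 in Tconv. That of epithelial and stromal markers was 203 to 267 in newly generated Treg (4 markers), 159 to 188 in tdTomato– Treg and 171 to 182 in Tconv (5 markers in both). Pecam1 made up most of this last sum. Its mean log2 CPM was 7.74 in CD73+ and 7.87 in CD73– newly generated Treg, 7.38 in tdTomato– Treg and 7.43 in Tconv. The mean of Epcam was only 1.31 to 2.67 over the 4 groups. Pecam1 also belongs to the list of receptors and adaptors that recruit SHP-1 or SHP-2. For 9 markers of CD8 and double-positive thymocytes the summed CPM was 40.3 to 45.8 in CD73+ and 44.6 to 106 in CD73– newly generated Treg, 80.3 to 99.6 in tdTomato– Treg and 92.9 to 97.1 in Tconv. The upper end in CD73– cells was library B. There the mean log2 CPM of these markers was 2.92, against 1.77 in CD73– library A and 1.61 in D. Rag1 stood at 4.75 in CD73– library B, against 2.72 in A and 2.70 in D. The means of Ms4a1, Spi1, Tyrobp and Krt8 were below a log2 CPM of 0 in all 4 groups, while the myeloid genes Cst3 and Lyz2, the B cell gene Cd79b, the epithelial gene Epcam, the erythroid genes Hba-a2 and Hbb-bs, the thymocyte genes Arpp21 and Rag1 and the innate and NK cell genes Eomes and Tbx21 rose in tdTomato– Treg against Tconv. Itgam, Cd8b1, Runx3 and Zbtb16 fell in the same comparison, and Aqp11 of the thymocyte list fell in CD73+ against CD73– cells. Zbtb16, the factor of innate-like T cells, rose in CD73+ against CD73– cells (log2 fold change 3.88, SE 0.66, limma adjusted p = 0.00413) and was highest in Tconv, at 2.86 to 3.08. Its values were −3.23, −0.72 and −4.46 in CD73– libraries A, B and D, and D held no count. The fold therefore depends on the offset of 0.5 count. Zbtb16 is not called in the authors' deposited table for CD73+ against CD73– cells, and it did not pass without letter D. The part of these marker genes in the phosphatase differences was not tested.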

How the data were processed

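Per the labels' protocols, TRIzol was used for the RNA and the KAPA RNA HyperPrep kit for the libraries. STAR, RSEM, limma and mm10 appear in the submitters' processing notes, without versions or options. Deposited by the authors were log2 CPM per gene and library, read from the values as having an offset of 0.5 count, in 2 tables of 6 libraries, with their own log2 fold changes, t statistics (a score) and p-values and adjusted p-values. The estimated counts were computed back from the lowest value of each library, and 93.2% of 24437 values of 1 to 20 counts came within 0.1 of a whole number.

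limma 3.58.1 (R 4.3.3) was run on the deposited log2 values: 12 libraries, 4 group means, no block, an intensity trend, two-sided tests. Genes in 1 table only were fitted on its 6 libraries. The fit was tested on simulated data. The members and gene lists were chosen with earlier results of these data known. Named genes are all members past the threshold in CD73+ against CD73– Treg, the 12 highest and 12 lowest fold changes among those past it in the other comparison, 12 members whatever their values, and up to 2 genes per list and direction. Coordinates and exon lengths come from GENCODE vM21, in which all 45 member IDs were found with the same version.

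Whether letters pair libraries was checked by correlating each library's deviations from its group mean. Over 9942 genes at or above a log2 CPM of 0 in all 12 libraries, CD73+ and CD73– libraries of the same letter correlated at 0.146, 0.266 and 0.222, all above 0.1, and were treated as paired; over 11167 tested genes the values were 0.110, 0.082 and 0.058. No 2 libraries of a group held the same values (at most 2.55% identical). 1 marker gene and the sum that includes it are not reported here.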

Additional observations from a re-analysis of the deposited data

How the results depend on the processing

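In CD73+ against CD73– newly generated Treg, the count of members past the threshold was 2; it was 6 with the replicate block, 1 with only the 2 groups compared, 1 with no intensity trend, 0 without all letter D libraries (2 libraries a group) and 1 whichever library was left out. Ptprs was the member kept in the counts of 1, and the block changed the calls of Dusp10, Ptpn13, Ptprc and Ptprcap alone. Over all genes the count was 276; it was 658 with the replicate block, 146 with only the 2 groups, 107 with no intensity trend, 46 without letter D and 101 to 369 with 1 library left out: 105 without CD73+ A, 101 without CD73+ B, 161 without CD73– A and 135 without CD73– D. For tdTomato– Treg against Tconv the members past the threshold were 27, and 22 to 30 under all alternatives, and all genes 5833, and 4549 to 6232. The libraries of this comparison were not treated as paired (0.117, 0.114 and 0.054 for letters A, B and D over 9942 genes); the block gave 28 members in place of 27, adding Dusp5 (adjusted p = 0.01), and changed no other call there. Testing without a filter on low values added Dusp3, Ptprk and Ptprm, and quantile normalisation added Ptpn14 (0.0139). Without letter D, Dusp14 and Ptpn5 no longer reached the filter. The calls of Dusp22 (limma adjusted p = 0.149), Ptpn4 (0.0839), Ptpn7 (0.0856) and Ptprn (0.13) ended there too, and Dusp5 passed (0.0435).

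Among the named members, estimates changed sign only in a comparison where the member passed in neither the main fit nor the alternative. Dusp6, Ptpn2 and Dusp1 did pass in tdTomato– Treg against Tconv. Between CD73+ and CD73– cells, Dusp6 ranged from −0.01 to 0.17 with 1 library left out, Ptpn2 from −0.08 to 0.03, Dusp1 from −0.39 to 0.13 and Dusp5 from −0.17 to 0.11; Dusp5 was 0.01 with quantile normalisation and 0.01 without letter D. Ptpn11 in tdTomato– Treg against Tconv ranged from −0.04 to 0.08 with 1 library left out and was −0.03 without letter D. Depth limits Dusp3, Dusp8, Dusp14, Dusp18, Ptpn5, Ptprg, Ptprk, Ptprm and Ptprn, which have few counts in at least 1 group.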

Other observations

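Dusp18, an atypical dual-specificity phosphatase that was too low to be tested, had log2 CPM values of −1.31, −1.49 and −0.37 in tdTomato– Treg and of −3.55, −3.83 and −2.36 in Tconv, with no overlap. In CD73+ newly generated Treg it ranged from −4.95 to −1.86, and in CD73– newly generated Treg libraries A and B stood at −4.81 and −3.53 while library D lay inside the range of tdTomato– Treg. Beside the B libraries of the inducible Dusp genes, other members kept an order of letters in all 4 groups: B was highest for Ptpn11, Ptpn12 and Ptpn14 (3.17% of 11167 genes), D was highest for Dusp1 and Ptprc (2.05%), A was lowest for Ptprc (2.13%) and D was lowest for Ptpn11 (1.84%).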
